A study of Mus musculus with 3 samples.

Results

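RNA-seq libraries that differ in what is left of beta-catenin were compared across 12126 genes of the 43280 in the tables, in skeletal mesenchyme of the mouse skull at E15.5. A gene was taken if its mean over the tables was at least 5 CPM (counts scaled to the library total). The library called cKO here came from primary cells of the beta-catenin genotype fx/fx with Dermo1-Cre, in which both alleles are floxed and can be removed. The library called dTF-cKO came from fx/dm cells with the same Cre, in which the dm allele is left once the floxed one is removed. A control library, fx/fx without Cre, entered the expression floor and is shown beside the values, and took no part in the comparison. Each genotype had 1 library of polyA RNA, and the sources used here do not say how many embryos went into it. Dermo1-Cre is driven by the Twist2 locus, active in mesenchyme, so cells of other origin in a sample keep their alleles. The fx/dm genotype was sequenced with Cre, and no fx/dm library without it entered the comparison.

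Beta-catenin, encoded by Ctnnb1, has a place in adhesion and one in transcription. At cell contacts it links cadherins through alpha-catenin to actin. In the nucleus it joins TCF/LEF factors and recruits co-activators that switch on Wnt target genes, once Wnt ligands at Frizzled and Lrp5/6 receptors have stopped its destruction by the Axin, Apc and Gsk3 complex. What dm stands for is not in the labels; a known mouse allele of that name makes a beta-catenin that keeps its part in adhesion and lacks transcriptional output. The comparison thus sets a genotype that may keep an adhesive beta-catenin against one that can lose all of it. In skull mesenchyme the Wnt pathway is known for steering progenitors toward bone and away from cartilage.

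With 1 library a genotype no test of genotype exists and no difference has a replicate check. Differences are between libraries, and every interval is an exact 95% interval for counting error, which leaves out the spread between embryos. Library totals were 3634819 (control), 2678457 (cKO) and 2905264 counts (dTF-cKO). Differences use TMM scaling (edgeR factors that centre most genes), under which the cKO and dTF-cKO libraries weigh almost the same, so their counts can be set side by side directly. The control total was larger, so its counts cannot. Counts of a gene are given below in the order control, cKO and dTF-cKO. The libraries also differed in ways that touch every comparison. The transcript Yam1, which has no entry in the annotation used, took 2.73%, 7.32% and 1.06% of counts in that order. Type I collagen, Col1a1 and Col1a2 together, took 17.6%, 4.04% and 0.766%. Xist had 1233, 0 and 2 counts and 4 Y-linked genes summed to 0, 362 and 444, so the libraries compared were alike in sex-linked transcripts and differed in them from the control. Genes with the shortest annotated transcripts (57 to 1260 bases) had a median log2 difference of 0.66 and those with the longest (6941 bases or more) of -0.21. Among coding genes without ribosomal proteins, split into 4 bins by length, the shortest bin had 0.09 and the longest -0.18. The 467 processed pseudogenes measured had a median of 1.24. The part of transcript length in the results was not tested.

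A gene is counted as higher or lower below when the dTF-cKO differs from the cKO by 2-fold or more. By that rule 1742 of the 12126 genes (14.4%) were higher and 2488 (20.5%) lower. Larger differences leaned toward lower values: 379 genes (3.13%) were at least 4-fold higher and 1062 (8.76%) at least 4-fold lower. For 1731 of the higher genes (14.3% of all) and 2470 of the lower ones (20.4%) the interval of the ratio excluded 1. The log2 difference, dTF-cKO minus cKO with a prior count of 2, had a median of 0.01 over all genes, and the middle 90% lay between -2.58 and 1.67. In the dTF-cKO 84 of the genes had 0 counts, against 6 in the cKO. Of the genes taken, 1322 reached 5 CPM in the cKO and not in the dTF-cKO, 338 the reverse, and 126 in the control alone. A gene below 5 CPM in the control and in 1 compared library passed through the other alone, so its direction was fixed. Lower genes made up 37.3% of the lowest of 10 bins by mean CPM and 11.9% of the highest. With a floor of 20 CPM 1191 genes were higher and 1176 lower. The split moved with the scaling. Scaled to library totals it was 1419 higher and 2818 lower, and with the 20 most abundant genes of each library left out of the totals 1131 and 3245. A stroma scaling, which sets to 0 the median of 63 genes from 4 lists (endothelium, smooth muscle and pericyte, meninges, dermal fibroblast), gave 8731 higher and 556 lower. The median of those 63 genes was -1.68, and this scaling adds 1.68 to the log2 difference of each gene. A gene less than 3.21-fold lower in the dTF-cKO therefore turns to higher under it, and medians under it stand beside those of the lists, shortened to stroma-scaled where both follow each other in brackets.

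**Figure D1:**
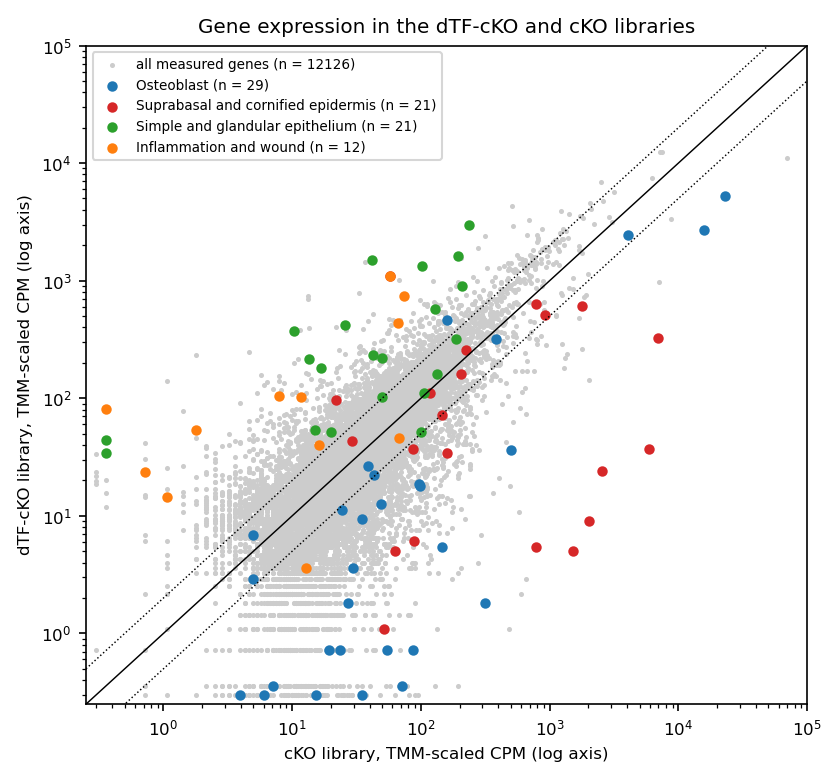
Each grey point is 1 of the 12126 genes, with TMM-scaled CPM in the cKO on the horizontal axis and in the dTF-cKO on the vertical axis, both on log axes; genes at 0 are drawn at the edge. The solid line marks equal values and the dotted lines 2-fold differences. Osteoblast genes (blue) lie mostly below the lines, simple epithelial genes (green) and inflammation and wound genes (orange) mostly above, and several suprabasal epidermal genes (red) far below.

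Ctnnb1 itself had fewer counts in the dTF-cKO. Counts over the whole gene (chr9:120929216-120960507, plus strand, GRCm38) were 3669, 2106 and 1236, or 1009 CPM of the total in the control and 751 and 445 TMM-scaled CPM in the cKO and dTF-cKO. The ratio of dTF-cKO to cKO was 0.593 (0.552 to 0.636), a log2 difference of -0.75 that becomes 0.93 under the stroma scaling. Reads of the dm allele, of floxed and of recombined alleles are counted together. Transcript was present in every library, the cKO included. Jup encodes plakoglobin, a close relative of beta-catenin that binds cadherins in adherens junctions and desmosomes. It had 288, 2191 and 2400 counts, so both Cre-carrying libraries stood far above the control and differed little from each other (ratio 1.11, 1.04 to 1.17). Twist2, the gene into which the Cre is built, had 21, 80 and 35 counts and was 2.26-fold lower (1.503 to 3.47) in the dTF-cKO.

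The cadherins went both ways. Of 23 catenins, cadherins and nectins, 7 counted as higher and 7 counted as lower, with a median of 0.48 (2.16 under the stroma scaling). Cdh1, the epithelial cadherin, had 130, 584 and 2502 counts and was 4.33-fold higher (3.95 to 4.74) in the dTF-cKO. Cdh3, the placental cadherin of basal epithelium, had 213, 188 and 625 counts and was 3.36-fold higher (2.85 to 3.97). The nectins Pvrl4 and Pvrl2, adhesion receptors that help to assemble adherens junctions, were 3.99-fold higher (3.57 to 4.48) and 4.15-fold higher (3.64 to 4.75). In 3 cadherins of mesenchyme and vessels the dTF-cKO stood lowest of all libraries. Cdh11, the cadherin of osteoblasts and their precursors, had 2370, 1394 and 101 counts and was 13.7-fold lower (11.2 to 16.9). Cdh2, N-cadherin, had 609, 126 and 11 counts and was 11.3-fold lower (6.13 to 23.3). Cdh5, the endothelial cadherin, had 883, 786 and 100 counts and was 7.78-fold lower (6.31 to 9.68). The count ratio of Cdh1 to Cdh2 within a library, which needs no scaling, was 0.213 in the control, 4.63 in the cKO (3.82 to 5.66) and 227 in the dTF-cKO (127 to 456). Ctnna1, the alpha-catenin that ties the complex to actin, had 809, 774 and 1495 counts and was 1.95-fold higher (1.79 to 2.13).

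Targets of the Wnt pathway were on balance lower in the dTF-cKO, a direction that the stroma scaling turns. Of 23 measured targets 11 counted as lower and 1, Rnf43, counted as higher, with a median of -0.99 against 0.01 over all genes and 0.70 under the stroma scaling. Axin2, the feedback inhibitor most used as a readout, had 125, 143 and 57 counts and was 2.48-fold lower (1.82 to 3.44) in the dTF-cKO than in the cKO. Ccnd1, cyclin D1, which drives entry into the cell cycle, had 885, 389 and 41 counts and was 9.39-fold lower (6.798 to 13.3). Tcf7, both a TCF/LEF factor and a target, had 438, 89 and 18 counts and was 4.895-fold lower (2.93 to 8.64). Apcdd1, a membrane inhibitor of Wnt receptors, had 230, 367 and 70 counts and was 5.19-fold lower (4.01 to 6.803). Dkk1, a secreted antagonist of Lrp5/6, was looked up after the values were seen; it had 154, 35 and 4 counts and was 8.66-fold lower (3.098 to 33.6). In these 5 genes the dTF-cKO was the lowest of the 3 libraries. Lef1 had 40, 67 and 43 counts, a smaller difference (1.54-fold lower (1.04 to 2.32)). Rnf43, which removes Frizzled receptors from the membrane, went the other way with 13, 51 and 109 counts and was 2.16-fold higher (1.53 to 3.07).

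TCF/LEF factors bind a short sequence that was searched in promoters here, the 250 bases before the transcript start in RefSeq (GRCm38.p6). The motif was ATCAAAG or TTCAAAG on either strand, and 7.48% of the 32851 promoters of the table hold it. Among the Wnt targets measured, 12 had a single promoter in that table and 1 of them, Dkk1, holds the motif. It is shown because Dkk1 was among the lowest targets in the dTF-cKO; the capitals mark the match, which lies on the reverse strand 117 bases before the start. A match is a description of letters and neither a site nor a cause.
Dkk1 promoter, chr19:30549497-30549746, minus strand: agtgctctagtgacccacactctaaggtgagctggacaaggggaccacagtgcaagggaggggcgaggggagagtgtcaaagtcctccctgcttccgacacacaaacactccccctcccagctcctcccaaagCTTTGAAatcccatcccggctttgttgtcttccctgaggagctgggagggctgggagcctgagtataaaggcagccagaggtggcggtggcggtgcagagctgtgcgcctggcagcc

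The other parts of the pathway differed in unlike ways. Secreted antagonists were lower: 8 of 11 counted as lower and 0 counted as higher (median -1.87, or -0.18 under the stroma scaling). Sfrp2 had 3280, 1694 and 471 counts and was 3.56-fold lower (3.21 to 3.95), Frzb had 139, 35 and 1 and was 34.7-fold lower (5.82 to 1407), and Dkk2 had 184, 167 and 31 and was 5.33-fold lower (3.62 to 8.099). Of 34 ligands, receptors and R-spondins 5 counted as higher, a share close to the 14.4% of all genes, and 14 lower (median -0.48, 1.20 under the stroma scaling). The higher ones were ligands known from epithelia. Wnt3 had 0, 47 and 389 counts and was 8.36-fold higher (6.17 to 11.6), Wnt7a had 0, 7 and 84 and was 12.1-fold higher (5.63 to 31.1), Wnt6 had 26, 85 and 372 and was 4.42-fold higher (3.48 to 5.66), and Wnt7b had 44, 369 and 1045 and was 2.86-fold higher (2.54 to 3.23). The remaining one, Wnt10a, was named after its value was seen and had 8, 48 and 122 counts. Wnt7a passed the floor through the dTF-cKO alone, so its direction was fixed by the floor. The receptors Fzd4 (88, 66 and 4 counts) and Ror1 (105, 76 and 13) and the agonist Rspo2 (35, 24 and 1) were among the lower ones, 16.3-fold lower (6.09 to 61.7), 5.79-fold lower (3.19 to 11.4) and 23.8-fold lower (3.87 to 977). Of 22 TCF/LEF factors and co-factors 0 counted as higher and 5 lower (median -0.33, 1.35 under the stroma scaling), the lower share close to the 20.5% of all genes. Pygo1, a co-activator that joins beta-catenin through Bcl9, had 154, 87 and 15 counts and was 5.74-fold lower (3.297 to 10.7). Bcl9 had 246, 142 and 206 counts and a ratio of 1.47 (1.18 to 1.83). Of 15 members of the destruction complex 1, the kinase gene Csnk1e, counted as higher and 3, a share close to the 20.5% of all genes, were lower (median 0.42). Under the stroma scaling its median was 2.10, with 11 higher and 0 lower. Apc had 323, 230 and 277 counts and a ratio of 1.22 (1.02 to 1.46), and Gsk3b had 267, 270 and 376 and a ratio of 1.41 (1.2 to 1.65).

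**Figure D2:**
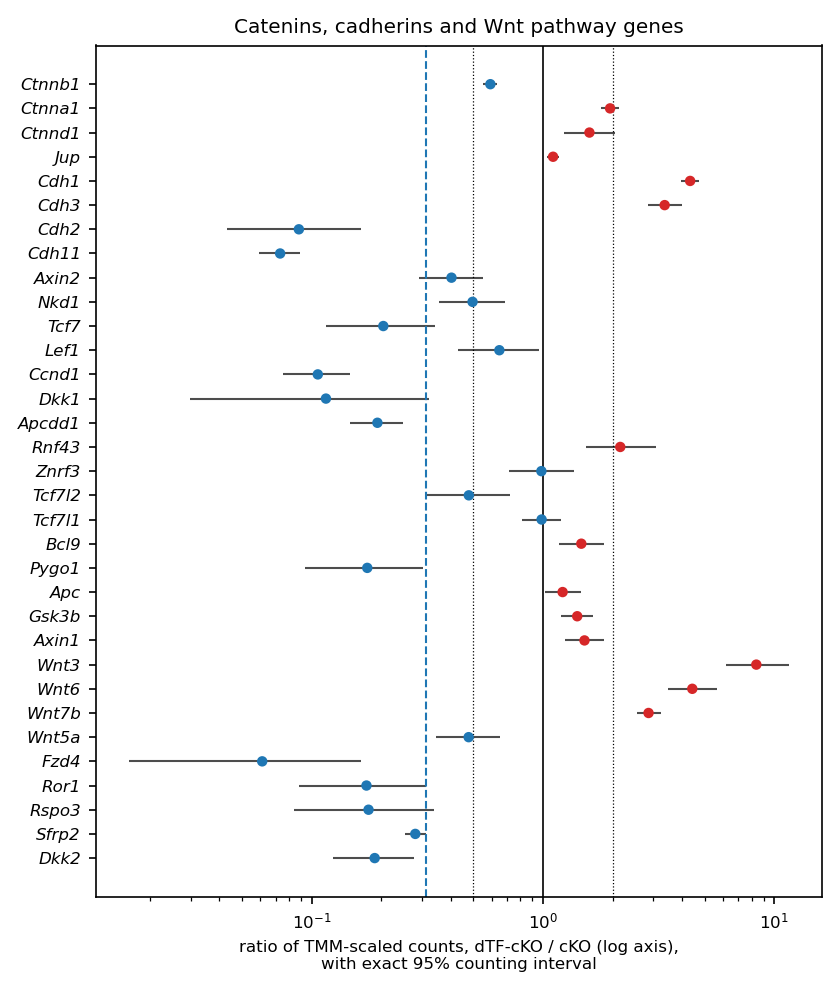
Ratio of TMM-scaled counts, dTF-cKO over cKO, on a log axis for catenins, cadherins and genes of the Wnt pathway (red above 1, blue below), with exact 95% counting intervals as bars. Dotted lines mark 2-fold differences and the dashed line the median of the 63 stroma genes; Cdh1, Cdh3 and the ligands Wnt3, Wnt6 and Wnt7b lie right of 2-fold, while Cdh2, Cdh11, Ccnd1 and Fzd4 lie left of the stroma line.

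Bone genes lay on the low side in the dTF-cKO, with a lower median than the pooled stroma genes. Among the stroma lists, smooth muscle and pericyte (-2.45) and endothelium (-2.22) had medians near that of bone. Dermal fibroblast (-1.82) and meninges (-0.78) had higher ones, and Spp1 is in both the meninges and the osteoblast list. Skeletal muscle lay lower than bone (-2.99). Of 29 osteoblast genes 22 counted as lower and 1, Atf4, higher. The median was -2.69 (-2.49 with genes at 0 set to their bound) and -1.01 under the stroma scaling. In bulk RNA fewer cells of a type and less RNA per cell cannot be told apart. Ibsp, a mineral-binding matrix protein of young osteoblasts, had 12627, 885 and 5 counts and was 175-fold lower (74.8 to 541). Smpd3, an enzyme needed for mineralisation, had 1558, 200 and 1 counts and was 198-fold lower (35.1 to 7859.6). Dmp1, expressed as osteoblasts turn into osteocytes, had 922, 244 and 2 and was 121-fold lower (33.1 to 1003). Alpl, the phosphatase of mineralising cells, had 2612, 406 and 15 and was 26.8-fold lower (16.1 to 48.3). Kazald1 had 364, 97 and 0 counts and Panx3, a channel protein of osteoblasts, 656, 43 and 0; at 0 counts in the dTF-cKO they were at least 32.01-fold lower (against 3 counts) and at least 14.2-fold lower (against 3 counts). In each of these 6 genes the control was highest, the cKO intermediate and the dTF-cKO at 15 counts or fewer.

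The transcription factors that make osteoblasts differed from one another. Runx2, which starts the lineage, had 512, 121 and 62 counts and was 1.93-fold lower (1.41 to 2.67), short of the 2-fold rule on the log2 scale (-0.93). Sp7, which acts after it, had 1092, 153 and 2 counts and was 75.7-fold lower (20.6 to 631). The count ratio of Sp7 to Runx2 was 2.13 in the control (1.92 to 2.37), 1.26 in the cKO (0.99 to 1.62) and 0.0323 in the dTF-cKO (0.00382 to 0.122). Spp1 and Sparc, matrix genes that other tissues also express, were looked up after their values were seen and lay nearer to equality, with 5443, 1066 and 879 and 40557, 11382 and 6737 counts.

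Genes of osteoprogenitors and suture mesenchyme, the cells from which skull bones grow, had 18 of 23 counted as lower and 0 higher, with a median of -1.61 that becomes 0.07 under the stroma scaling. Their median therefore lay at that of the stroma genes, some of which (Pdgfra, Foxc1, Erg) are in both. Alx4, a homeobox gene of skull bones, had 602, 252 and 11 counts and was 22.7-fold lower (12.5 to 46.02). Foxc2 had 77, 42 and 1 and was 41.6-fold lower (7.07 to 1681). Gli1, a hedgehog target that marks suture stem cells, had 290, 110 and 14 and was 7.78-fold lower (4.44 to 14.7), and Six2 had 407, 154 and 33 and was 4.62-fold lower (3.16 to 6.95). Twist1, a bHLH factor that restrains bone formation in sutures, lay apart from these: it had 590, 301 and 349 counts and a ratio of 1.17 (1.001 to 1.37). Msx2, looked up after its values were seen, had 73, 49 and 93 counts. Of 18 mesenchymal transcription factors 14 were lower and 0 higher (median -2.35, -0.67 under the stroma scaling). Snai1, a repressor of Cdh1, had 182, 115 and 11 counts and was 10.4-fold lower (5.57 to 21.3), Nfia had 322, 308 and 33 and was 9.24-fold lower (6.44 to 13.7), and Meox1 had 60, 51 and 3 and was 16.8-fold lower (5.44 to 84.3).

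Cartilage showed lower values in the dTF-cKO as well. Of 23 chondrocyte genes 20 counted as lower and 0 higher (median -2.07, -0.38 under the stroma scaling). Acan, encoding aggrecan, the large proteoglycan of cartilage, had 533, 772 and 11 counts and was 69.5-fold lower (38.6 to 139.8). Matn1 had 36, 448 and 20 and was 22.2-fold lower (14.2 to 36.7), and Hapln1, which ties Acan to hyaluronan, had 115, 305 and 24 and was 12.6-fold lower (8.298 to 19.9). Col2a1, the main cartilage collagen, had 1886, 4982 and 722 counts and was 6.83-fold lower (6.32 to 7.396). In these 4 genes the cKO was the highest library. Sox9, the factor that specifies cartilage, differed less, with 166, 149 and 91 counts and a ratio of 0.617 (0.47 to 0.806). Of 8 genes of hypertrophic cartilage, 4 of them also osteoblast genes (Ibsp, Panx3, Alpl and Pth1r), 7 were lower (median -2.86, stroma-scaled -1.18) and Vegfa was 4.71-fold higher (4.14 to 5.38). Mmp13, a collagenase of the growth plate, had 376, 38 and 2 counts and was 18.8-fold lower (4.86 to 161).

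The matrix genes followed with a smaller median. Of 21 fibrillar and basement membrane collagens 14 counted as lower and 1, the epidermal Col17a1, higher (median -1.34, 0.34 under the stroma scaling). Col1a1 had 409783, 64161 and 14705 counts and was 4.32-fold lower (4.24 to 4.398), and Col1a2 had 230100, 44103 and 7552 and was 5.78-fold lower (5.64 to 5.93). Col3a1, the collagen of soft connective tissue, had 34177, 24522 and 9275 and was 2.62-fold lower (2.56 to 2.68). Type I collagen over Col3a1 gave a count ratio of 18.7 in the control, 4.41 in the cKO (4.35 to 4.48) and 2.40 in the dTF-cKO (2.34 to 2.46). Of 26 matricellular proteins and proteoglycans 16 were lower and 0 higher (median -1.19, 0.49 under the stroma scaling). Emilin1, an elastic fibre protein, had 2431, 1136 and 58 counts and was 19.4-fold lower (14.9 to 25.7), and Thbs2 had 4612, 1798 and 339 and was 5.25-fold lower (4.67 to 5.91). Of 22 genes that fold, modify and cross-link collagen 7 were lower and 1 higher (median -0.71, 0.97 under the stroma scaling). Serpinh1, the collagen chaperone, hardly differed (15333, 5022 and 4768 counts, ratio 0.959 (0.922 to 0.998)), while Loxl1, a cross-linking enzyme, had 533, 289 and 23 counts and was 12.4-fold lower (8.13 to 19.9). P4ha1, a prolyl hydroxylase subunit that also belongs to the hypoxia list, had 1284, 605 and 1412 counts and was 2.36-fold higher (2.14 to 2.597). Integrins and laminins split into 7 higher and 6 lower of 26, the lower share close to the 20.5% of all genes. The higher ones included Itgb6 (2, 14 and 121 counts, 8.73-fold higher (5.01 to 16.4)) and Itga3 (39, 158 and 1046, 6.69-fold higher (5.65 to 7.96)), which epithelia use. The lower ones included Itga9 (234, 141 and 18) and Itga10 (376, 85 and 16), the latter a collagen receptor of chondrocytes.

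Signalling genes of the mesenchyme were lower in several pathways. All 12 hedgehog genes had lower values, 10 of them at least 2-fold, with a median of -1.51 that the stroma scaling takes to 0.17. Ptch1, receptor and target of the pathway, had 422, 197 and 73 counts and was 2.67-fold lower (2.03 to 3.54). Of 15 FGF genes 8 were lower and 0 higher (median -1.26, 0.42 under the stroma scaling). Fgf7 had 19, 36 and 1 counts and was 35.6-fold lower (6.002 to 1446), and Fgfr1 had 1722, 832 and 268 and was 3.07-fold lower (2.68 to 3.54). Of 28 BMP and TGF-beta genes 9 were lower and 1, Inhba, higher (median -0.60, 1.08 under the stroma scaling). Bmp5 had 47, 49 and 4 counts and was 12.1-fold lower (4.45 to 46.3), while Id1, a direct target of BMP signalling, had 146, 129 and 159 and a ratio of 1.24 (0.981 to 1.58). Notch genes went both ways, 2 higher (a share close to the 14.4% of all genes) and 7 lower of 15 (median -0.77, 0.91 under the stroma scaling). Notch1 had 323, 508 and 1400 counts and was 2.78-fold higher (2.51 to 3.09), Jag2 had 84, 170 and 591 and was 3.51-fold higher (2.96 to 4.19), and Heyl, a target found in vessel walls, had 137, 160 and 1 and was 158-fold lower (28.03 to 6295). Among 20 growth and imprinted genes 8 were lower and 1, Igfbp2, was higher (median -0.78, 0.90 under the stroma scaling). Igfbp5 had 7870, 3591 and 505 counts and was 7.04-fold lower (6.41 to 7.74), while Igf2 and H19, neighbours under shared imprinting, had 25831, 17468 and 20646 and 32555, 20147 and 34147 counts with ratios of 1.19 (1.17 to 1.22) and 1.71 (1.68 to 1.74).

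Markers of other tissues in the sample differed at the same time, and their part in the results above was not tested. All 19 endothelial genes had lower values, 16 of them at least 2-fold (median -2.22, -0.54 under the stroma scaling, which uses them). Kdr, the main VEGF receptor, had 316, 384 and 20 counts and was 19.01-fold lower (12.1 to 31.5), and Vwf had 345, 680 and 41 and was 16.4-fold lower (11.98 to 23.1). Of 13 smooth muscle and pericyte genes 8 were lower and 3, Acta2, Tagln and Cnn1, higher (median -2.45, stroma-scaled -0.76). Pdgfrb had 824, 659 and 41 counts and was 15.9-fold lower (11.6 to 22.4), and Cspg4 had 656, 331 and 13 and was 25.2-fold lower (14.5 to 47.8). Acta2 had 605, 528 and 2482 and was 4.75-fold higher (4.32 to 5.23), and Tagln had 184, 153 and 1002 and was 6.61-fold higher (5.57 to 7.89). Myh11, smooth muscle myosin, went the other way with 69, 75 and 12 counts and was 6.19-fold lower (3.34 to 12.5), looked up after its values were seen. Acta2 and Tagln are also in the list of YAP and SRF targets, of which 8 of 17 counted as higher and 0 lower (median 0.88, stroma-scaled 2.56). Cyr61, a matricellular YAP target, had 224, 348 and 2731 counts and was 7.93-fold higher (7.09 to 8.89). Dermal fibroblast genes had 13 of 16 lower (median -1.82, stroma-scaled -0.14) and meninges genes 7 of 15 (median -0.78, 0.90 under the stroma scaling). Of 20 skeletal muscle genes, summed at 8065, 1044 and 67 counts, 18 were lower (median -2.99, -1.31 under the stroma scaling). Myh3, the embryonic myosin, had 1719, 219 and 1 counts.

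Macrophage, mast cell, neuronal and melanocyte genes were mostly lower too, and globins higher. Of 17 macrophage genes 11 counted as lower and 1 higher (median -1.28, 0.40 under the stroma scaling). Csf1r, the growth factor receptor of macrophages, had 373, 301 and 69 counts and was 4.32-fold lower (3.31 to 5.695). Cd68 was the higher one, with 83, 45 and 231 counts. The mast cell genes Cpa3, Cma1 and Tpsb2 had 93, 487 and 8, 127, 492 and 30 and 109, 254 and 5 counts, each highest in the cKO. Of 7 neuronal genes 6 were lower (median -1.80, -0.12 under the stroma scaling) and of 7 melanocyte genes 5 (median -1.34, 0.34). Schwann cell genes were mixed, with 3 of 9 lower and 1 higher (median -0.27, stroma-scaled 1.41). Ngfr was lower (226, 192 and 2 counts, 95.04-fold lower (25.96 to 790.5)) and Mbp higher (41, 60 and 208, 3.502-fold higher (2.62 to 4.75)). Ttr, a transport protein of liver and choroid plexus, had 1011, 1632 and 30 counts and was 53.9-fold lower (37.6 to 80.1). Globin genes of red blood cells took 0.636%, 0.568% and 1.53% of counts, and 6 of 9 erythroid genes were higher. Copies of near-identical sequence (Hba-a1 with Hba-a2, Hbb-bs with Hbb-bt) cannot be separated with confidence. Hbb-y and Hba-x, embryonic globins of the first wave of red cells, had 16, 16 and 441 and 26, 48 and 502 counts and were 27.8-fold higher (16.95 to 49.1) and 10.6-fold higher (7.85 to 14.5). Their sum over Hbb-bs and Hbb-bt was 0.399% in the control, 0.687% in the cKO (0.529% to 0.878%) and 3.76% in the dTF-cKO (3.52% to 4.01%).

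Many epithelial genes stood far above the control in both Cre-carrying libraries, with different genes leading in each. Keratins are intermediate filament genes that mark epithelial layers: Krt5 and Krt14 the basal layer of epidermis, Krt1 and Krt10 the layers above it, and Krt8 and Krt18 simple epithelia and the embryonic surface layer. Of 17 basal genes 8 counted as higher in the dTF-cKO than in the cKO and 1 lower (median 0.94, stroma-scaled 2.62). The lower one had a log2 difference of -1.50. This list also holds Krt6a, Krt16 and Krt17, keratins of wounded epidermis. Krt5 had 86, 5759 and 12663 counts and was 2.22-fold higher (2.15 to 2.29), and Krt14 had 20, 3047 and 5788 and was 1.92-fold higher (1.84 to 2.01). Trp63, the master factor of stratified epithelium, had 2, 275 and 225 counts (looked up after its values were seen). Of 21 suprabasal and cornified genes 13 were lower and 2, Sprr1a and Sprr1b, higher (median -1.53, 0.15 under the stroma scaling). Krt1 had 16, 16591 and 102 counts and was 161-fold lower (133 to 198). Lor, which encodes loricrin of the cornified envelope, had 12, 7210 and 67 counts and was 107-fold lower (83.8 to 138), and Hrnr, of the filaggrin family, had 3, 4270 and 14 and was 302-fold lower (179.8 to 553). Hrnr passed the floor through the cKO alone, so its direction was fixed by the floor. Krt10, the partner of Krt1, kept more, with 21, 19639 and 901 counts. Krt1 and Krt10 over Krt5 and Krt14 gave a count ratio of 0.349 in the control (0.233 to 0.512), 4.11 in the cKO (4.02 to 4.21) and 0.0544 in the dTF-cKO (0.0510 to 0.0579).

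Simple and glandular epithelial genes were mostly highest in the dTF-cKO. Of 21 genes 17 counted as higher and 0 lower (median 2.45, stroma-scaled 4.13). Krt8 had 54, 116 and 4159 counts and was 36.2-fold higher (30.1 to 43.9), and its partner Krt18 had 33, 72 and 1163 and was 16.3-fold higher (12.9 to 21). Elf3, an epithelial ETS factor, had 23, 29 and 1042 and was 36.3-fold higher (25.1 to 54.5). The claudins Cldn4, Cldn6 and Cldn7, of tight junctions, had 8, 288 and 3677, 14, 1 and 95 and 8, 1 and 122 counts. Cldn6 and Cldn7 passed the floor through the dTF-cKO alone, so their direction was fixed by the floor. Krt7 and Krt19, added after their values were seen, had 50, 663 and 8254 and 64, 545 and 4463 counts. Krt8 and Krt18 over Krt5 and Krt14 came to 82.1% in the control (61.1% to 110%), 2.13% in the cKO (1.84% to 2.47%) and 28.8% in the dTF-cKO (28.0% to 29.7%). The control had 106 counts of Krt5 and Krt14. By this ratio the dTF-cKO lay between the control and the cKO. Keratins of wounded or regenerating epidermis were also highest there: Krt17 had 16, 103 and 3967 counts and was 38.9-fold higher (31.99 to 47.8), and Krt16 had 0, 31 and 597 and was 19.5-fold higher (13.6 to 28.9). Krt17 over Krt5 and Krt14 was 15.1% in the control (8.33% to 25.7%), 1.17% in the cKO (0.954% to 1.42%) and 21.5% in the dTF-cKO (20.8% to 22.3%). The dTF-cKO ratio lay within the control interval. Desmosomal cadherins changed places: Dsc1 and Dsg1a, of the upper epidermis, had 2, 543 and 1 and 0, 577 and 10 counts and were 538-fold lower (96.1 to 21273) and 57.1-fold lower (30.8 to 119.8), while Dsg2, of simple epithelia, had 7, 47 and 356 and was 7.65-fold higher (5.63 to 10.6). Dsc1 and Dsg1a passed the floor through the cKO alone, so their direction was fixed by the floor. Dsp, desmoplakin, which every desmosome uses, had 65, 5538 and 3184 counts. Over the 23 desmosome and tight junction genes 11 were higher and 3 lower (median 0.67, stroma-scaled 2.35). The counts do not say which cells carry the epithelial transcripts. Summed over the lists, basal genes made up 0.0193%, 0.71% and 1.37% of counts in the control, cKO and dTF-cKO, suprabasal genes 0.00281%, 2.57% and 0.389% and simple epithelial genes 0.01799%, 0.176% and 1.09%.

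**Figure D3:**
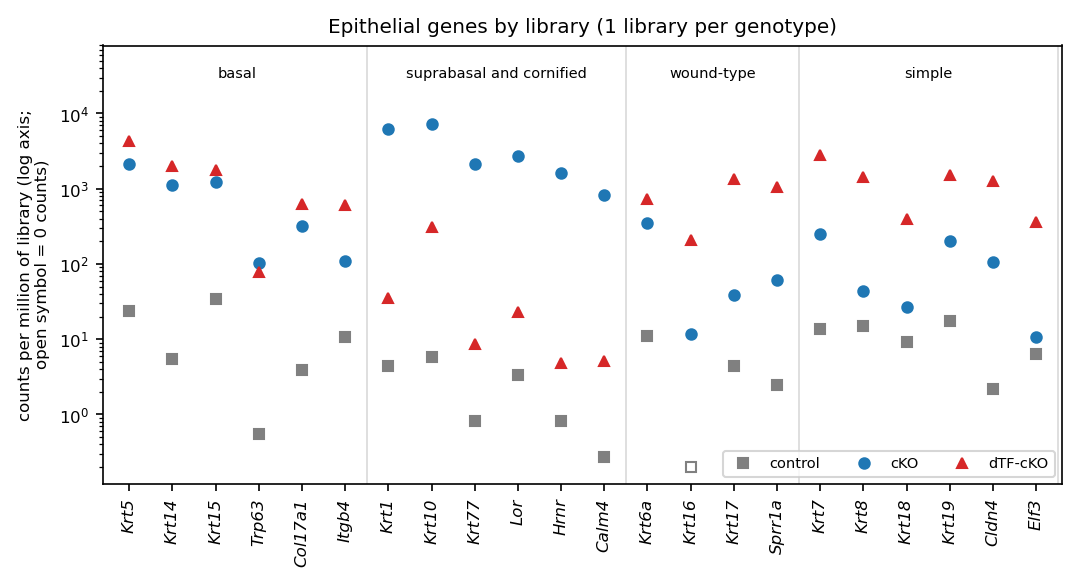
CPM of the library total (log axis) for 22 epithelial genes in the control (grey squares), cKO (blue circles) and dTF-cKO (red triangles), 1 library each; an open symbol marks 0 counts. Among the basal genes Itgb4 (6.06-fold), Krt5 (2.22-fold) and Col17a1 (2.16-fold) are higher in the dTF-cKO than in the cKO by TMM-scaled counts. Krt14 and Trp63 differ by less than 2-fold. Krt15 and Krt6a are drawn as well, without values given here. The suprabasal genes are highest in the cKO, and Krt16, Krt17, Sprr1a and the simple epithelial genes are highest in the dTF-cKO.

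Stress-responsive genes were higher in the dTF-cKO across most lists. Immediate early genes are transcription factors and feedback inhibitors switched on within minutes of a stimulus. Of 22 of them 14 counted as higher and 3 lower (median 1.41, stroma-scaled 3.09). Fosl1 had 1, 0 and 93 counts and was at least 31.3-fold higher (against 3 counts). Fosl1 and Atf3 passed the floor through the dTF-cKO alone, so their direction was fixed by it. Atf3 had 14, 11 and 251 and was 23.05-fold higher (12.7 to 46.8), Ier3 had 31, 29 and 558 and was 19.4-fold higher (13.4 to 29.3), and Zfp36, which degrades inflammatory mRNAs, had 60, 171 and 1273 and was 7.52-fold higher (6.41 to 8.87). Fos itself had 45, 247 and 657 counts and was 2.69-fold higher (2.32 to 3.12). The lower ones were Klf2 (175, 86 and 17), Klf4 (600, 748 and 298) and Fosb (3, 32 and 13), which passed the floor through the cKO alone. Of 22 inflammation and wound genes 12 passed the floor, and 10 of those were higher. Their median was the highest of all lists, 3.19 (4.87 under the stroma scaling), and 2.70 without a floor. Cxcl10, Ptgs2 and Tnf passed through the dTF-cKO alone, so their direction was fixed by the floor. The chemokine Cxcl10 had 0, 1 and 223 counts and was 225-fold higher (40.01 to 8936). Ptgs2, the inducible cyclooxygenase, had 5, 5 and 150 and was 30.3-fold higher (12.7 to 94.7), and Tnf had 1, 2 and 66 and was 33.3-fold higher (8.87 to 281). The lower one was Il33, with 38, 36 and 10 counts.

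Lists of damaged or misfolded protein and of amino acid shortage had positive medians, some of them small. Of 25 genes of the integrated stress response, in which Atf4 drives amino acid supply when translation is held back, 14 were higher and 1, Slc7a11, lower (median 1.13, stroma-scaled 2.81). Atf4 had 604, 448 and 1279 counts and was 2.88-fold higher (2.59 to 3.22). Ddit3, which encodes the pro-apoptotic factor CHOP, had 44, 36 and 268 and was 7.52-fold higher (5.296 to 10.97), and Asns, asparagine synthetase, had 143, 66 and 518 and was 7.93-fold higher (6.13 to 10.4). The cystine transporter Slc7a11, a target of the same factor, had 29, 98 and 15 counts, highest in the cKO, and was 6.47-fold lower (3.74 to 12). Of 20 tRNA synthetases 4 were higher (Aars, Cars, Nars and Sars), a share close to the 14.4% of all genes, and 0 lower (median 0.34, stroma-scaled 2.02). ER chaperones had 6 of 20 higher and 0 lower (median 0.81, stroma-scaled 2.49). Hspa5, the chaperone BiP, had 2272, 1449 and 8126 counts and was 5.66-fold higher (5.36 to 5.99), and Hyou1 had 580, 345 and 1346 and was 3.94-fold higher (3.498 to 4.45). Xbp1, looked up after its values were seen, had 560, 397 and 517. Heat shock genes had 10 of 17 higher and 0 lower (median 1.20, stroma-scaled 2.88). Hspb1, a small heat shock protein that keratinocytes also express, had 80, 1437 and 11917 counts and was 8.38-fold higher (7.93 to 8.85). Hspa1a had 11, 119 and 1447 and was 12.3-fold higher (10.2 to 14.9), though its near-identical copy Hspa1b makes both counts uncertain.

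Genes of p53, hypoxia and sterol supply gave the next block. Of 18 p53 targets and apoptosis genes 13 counted as higher and 1, Sesn1, lower (median 1.98, stroma-scaled 3.66). Pmaip1, which encodes the killer protein NOXA, had 15, 32 and 1061 counts and was 33.5-fold higher (23.6 to 49.2), Bbc3, encoding PUMA, had 31, 10 and 121 and was 12.2-fold higher (6.42 to 26.1), and the cell cycle inhibitor Cdkn1a had 336, 475 and 2365 and was 5.03-fold higher (4.56 to 5.56). Of 30 glycolysis and hypoxia genes 15 were higher and 0 lower (median 1.09, stroma-scaled 2.77). Slc2a1, the glucose transporter GLUT1, had 285, 887 and 6660 counts and was 7.58-fold higher (7.07 to 8.14). Adm, a vessel-dilating peptide of hypoxic cells, had 18, 30 and 312 and was 10.5-fold higher (7.21 to 15.8), Ndrg1 had 336, 777 and 5276 and was 6.86-fold higher (6.36 to 7.404), and Vegfa had 280, 280 and 1306. Of 20 cholesterol genes 14 were higher and 1, Mvk, lower (median 1.53, stroma-scaled 3.21). Hmgcs1, an early enzyme of the pathway, had 221, 285 and 1144 counts and was 4.05-fold higher (3.56 to 4.63). Mvk had 100, 157 and 33 and was 4.71-fold lower (3.22 to 7.08), the 1 member of the list with a value below 0. Of 12 fatty acid synthesis genes 1 was higher and 2 were lower (median 0.20, -0.09 without the most abundant genes in the totals), and under the stroma scaling 8 were higher (median 1.88). Oxidative stress genes under NRF2 had 5 of 13 higher (median 0.74, stroma-scaled 2.42), with Hmox1, heme oxygenase, at 93, 208 and 2043 counts and 9.92-fold higher (8.598 to 11.5). The metallothioneins Mt1 and Mt2, metal-binding proteins induced by zinc and stress, had 47, 93 and 2170 and 25, 37 and 1930 counts and were 23.6-fold higher (19.1 to 29.3) and 52.7-fold higher (38.1 to 75.1). Interferon genes had 3 of 8 higher (median 0.31, stroma-scaled 1.99).

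**Figure D4:**
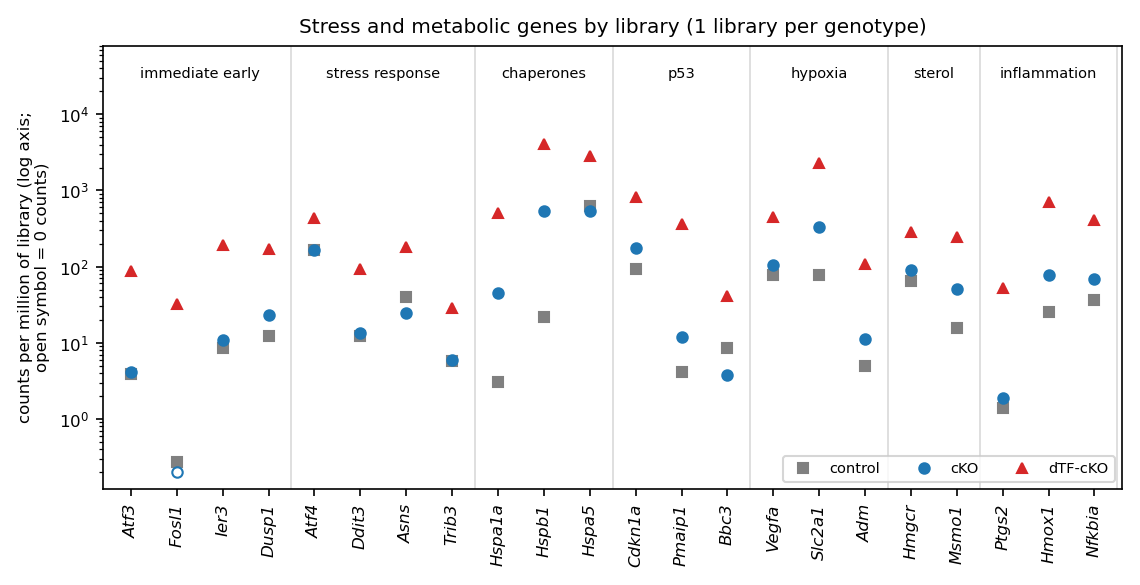
CPM of the library total (log axis) for 22 stress and metabolic genes in the control (grey squares), cKO (blue circles) and dTF-cKO (red triangles), 1 library each; an open symbol marks 0 counts. The dTF-cKO is the highest library for each gene drawn, and for many of them the control and cKO lie close together. Members of these lists that were lower in the dTF-cKO (Slc7a11, Sesn1, Mvk, Klf2, Klf4, Fosb and Il33) are not drawn.

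Several of these programmes have a well-known DNA element, and the promoters of 5 genes with large differences are shown with theirs. The Atf4 element, searched as TGATGCAA or TGATGAAA on either strand, is held by 1.67% of the 32851 promoters and by 5 of the 19 integrated stress genes with a single promoter: Atf3, Chac1, Asns, Slc7a11 and Nupr1. One of those 5, Slc7a11, was lower in the dTF-cKO. The ER stress element, searched as CCAAT and CCACG with 9 bases between them, is held by 0.113% of all promoters and by 8 of 18 ER chaperone genes, Hspa5, Hsp90b1 and Calr among them. The hypoxia element ACGTGC is held by 4.92% of all, by 7.09% of measured genes with a single promoter and by 8 of 18 glycolysis and hypoxia genes. The CCAAT box, the binding site of NF-Y and a part of the ER stress element, is held by 33.8% of all and 11 of 11 cholesterol genes. It is also held by 14 of 16 mitotic genes, whose list had a median of -0.26. The GC box GGGCGG is held by the same 11 cholesterol genes. The sterol element TCACCCCAC is held by 0.496% of all promoters and, of those 11 genes, by Hmgcs1 alone. In the sequences, from RefSeq on GRCm38.p6, capitals mark the matches; those in Asns, Hspa5 and Slc2a1 lie 23, 65 and 36 bases before the start, and in Hmgcs1 the sterol element at 137 stands among 3 reversed CCAAT boxes.
Asns promoter, chr6:7693210-7693459, minus strand: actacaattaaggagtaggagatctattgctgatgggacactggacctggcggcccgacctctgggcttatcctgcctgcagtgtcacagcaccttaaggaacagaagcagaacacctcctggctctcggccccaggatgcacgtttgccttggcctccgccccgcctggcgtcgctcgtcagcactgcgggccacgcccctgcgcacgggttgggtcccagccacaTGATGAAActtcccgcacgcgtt
Atf3 promoter, chr1:191183334-191183583, minus strand: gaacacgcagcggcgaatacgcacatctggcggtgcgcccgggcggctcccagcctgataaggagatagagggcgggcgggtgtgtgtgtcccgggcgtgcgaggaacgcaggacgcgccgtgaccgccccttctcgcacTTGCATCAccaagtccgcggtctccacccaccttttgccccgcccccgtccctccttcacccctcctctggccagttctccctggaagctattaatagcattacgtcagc
Hspa5 promoter, chr2:34771840-34772089, plus strand: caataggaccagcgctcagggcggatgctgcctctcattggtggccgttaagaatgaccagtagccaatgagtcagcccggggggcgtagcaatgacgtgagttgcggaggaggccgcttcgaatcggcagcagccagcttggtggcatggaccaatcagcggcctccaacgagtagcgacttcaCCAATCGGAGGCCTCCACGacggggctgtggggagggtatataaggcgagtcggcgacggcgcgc
Hmgcs1 promoter, chr13:119690101-119690350, plus strand: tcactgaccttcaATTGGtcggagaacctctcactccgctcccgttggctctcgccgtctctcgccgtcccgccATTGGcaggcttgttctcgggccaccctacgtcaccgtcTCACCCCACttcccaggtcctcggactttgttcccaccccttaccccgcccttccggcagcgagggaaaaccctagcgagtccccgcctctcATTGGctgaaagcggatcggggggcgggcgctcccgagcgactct
Slc2a1 promoter, chr4:119108495-119108744, plus strand: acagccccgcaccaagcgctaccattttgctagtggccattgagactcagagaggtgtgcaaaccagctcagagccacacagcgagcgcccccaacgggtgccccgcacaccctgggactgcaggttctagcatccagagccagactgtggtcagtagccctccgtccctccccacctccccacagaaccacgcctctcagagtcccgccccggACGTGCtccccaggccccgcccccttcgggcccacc

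Over measured genes with a single promoter the AP-1 site TGANTCA, bound by Fos and Jun proteins, was held by 6.83% of the 820 higher genes, 3.88% of the 1416 lower ones and 3.31% of the 4708 others. The TCF/LEF motif was held by 4.39%, 5.44% and 4.95% in the same order, and the GC box by 68.3%, 56.1% and 65.6%. These shares describe letters in promoters and were not tested.

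Proliferation genes had negative medians that the stroma scaling turns to positive. Of 23 replication genes 11 counted as lower and 0 higher (median -0.999, 0.68 under the stroma scaling). Rrm2, a subunit of ribonucleotide reductase, had 190, 158 and 45 counts and was 3.48-fold lower (2.48 to 4.96), and Ccne2 had 53, 38 and 6 and was 6.27-fold lower (2.63 to 18.1). Mcm2 and Pcna, of the helicase and the sliding clamp, had 384, 275 and 232 and 284, 295 and 220 counts and ratios of 0.852 (0.712 to 1.02) and 0.753 (0.6297 to 0.9). Of 21 mitotic genes 2, Mki67 and Cenpf, were lower (median -0.26, 1.42 under the stroma scaling), and Cdk1 had 233, 206 and 178 counts and a ratio of 0.873 (0.7101 to 1.07). The cyclin-dependent kinase inhibitors went different ways. Cdkn2a and Cdkn2b, which share a locus and stop the cycle at the Ccnd kinases, had 0, 2 and 84 and 1, 7 and 79 counts and were 42.4-fold higher (11.4 to 356) and 11.4-fold higher (5.28 to 29.3), and Cdkn1c had 3987, 2213 and 877 and was 2.498-fold lower (2.31 to 2.705). Cdkn2a and Cdkn2b passed the floor through the dTF-cKO alone, so their direction was fixed by the floor. Over the 16 cyclins and inhibitors 5 were higher and 4 lower (median 0.34, stroma-scaled 2.03).

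Ribosomal protein genes were higher, closely together. All 37 had values above 0 on the log2 scale, from 0.49 to 1.40 (median 0.99, stroma-scaled 2.67), and 16 passed 2-fold. Rps2 had 4865, 3942 and 10275 counts and was 2.63-fold higher (2.54 to 2.73). Their transcripts are short and have many processed pseudogenes, of which 301 of 467 measured (64.5%) were also counted as higher; reads cannot be assigned between them with confidence. Of 20 ribosome assembly factors 1 was higher (median 0.22, -0.07 without the most abundant genes in the totals), and under the stroma scaling 19 were (median 1.90). Of 25 proteasome genes 0 were higher or lower by 2-fold (median 0.54), whereas under the stroma scaling all 25 were higher (median 2.22). Mitochondrial genes differed by genome. Of 15 genes of the mitochondrial genome 7 were lower and 1, mt-Nd6, higher (median -0.93, 0.75 under the stroma scaling), with mt-Nd1 at 2973, 3486 and 801 counts (4.31-fold lower (3.99 to 4.66)) and mt-Co1 at 9243, 8492 and 8740 (ratio 1.04 (1.01 to 1.07)). Of 30 nuclear genes of oxidative phosphorylation 1, Cox7c, was higher and 0 lower (median 0.33, stroma-scaled 2.01). The mitochondrial ribosomal RNAs over mt-Nd1 and mt-Nd4 gave a count ratio of 0.713 in the control, 0.490 in the cKO (0.469 to 0.512) and 2.84 in the dTF-cKO (2.68 to 3.01).

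The genes farthest apart between the libraries came from several tissues and programmes. Ranked by the interval end nearest to 1, the 15 highest in the dTF-cKO were led by Krt75, a hair follicle keratin, with 2, 5 and 643 counts, 129.9-fold higher (55.4 to 401). Lipg, an endothelial-type lipase, had 2, 3 and 387 and was 130.3-fold higher (44.3 to 635), and Gprc5a, an orphan receptor of epithelia, had 11, 37 and 2070 and was 56.5-fold higher (40.9 to 80.5). Lrrn4cl had 30, 13 and 685 and was 53.2-fold higher (30.9 to 100.5), and Cdcp1, a surface protein of epithelial cells, had 8, 38 and 1101 and was 29.3-fold higher (21.2 to 41.6). The others were Cxcl10, Mt2, Krt17, Krt8, Elf3, Fosl1, Pmaip1, Cldn7, Mt1 and Sprr2d. Of the 15 lowest, Hrnr, Krt77, Krt1, Dsc1, Calm4 and Lor belong to the upper epidermis and Krtap15 and Krtap13 to hair. Krt77 had 3, 5648 and 25 counts and Krtap15 0, 1350 and 3. Aox4, an aldehyde oxidase, had 6, 1841 and 8 counts, and Cyp2b19, a keratinocyte cytochrome, 0, 266 and 0. Ibsp, Acan and Myh3, of bone, cartilage and muscle, were among the 15 as well, with Orm1 and Stfa3. Near-identical copies make the counts of Sprr2d and Stfa3 uncertain. Krt75, Lipg, Cxcl10, Fosl1, Cldn7 and Sprr2d passed the floor through the dTF-cKO alone. Hrnr, Krtap15, Krtap13, Aox4, Dsc1, Cyp2b19, Orm1 and Stfa3 passed it through the cKO alone. The direction of these genes was therefore fixed by the floor. Krt77, Calm4 and Lrrn4cl also needed the library where they were high to pass it. Over the 37 ribosomal protein genes the whole range of log2 differences was narrower than 1 unit, whereas within the 21 suprabasal genes it ran from -8.05 to 4.22.

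**Figure D5:**
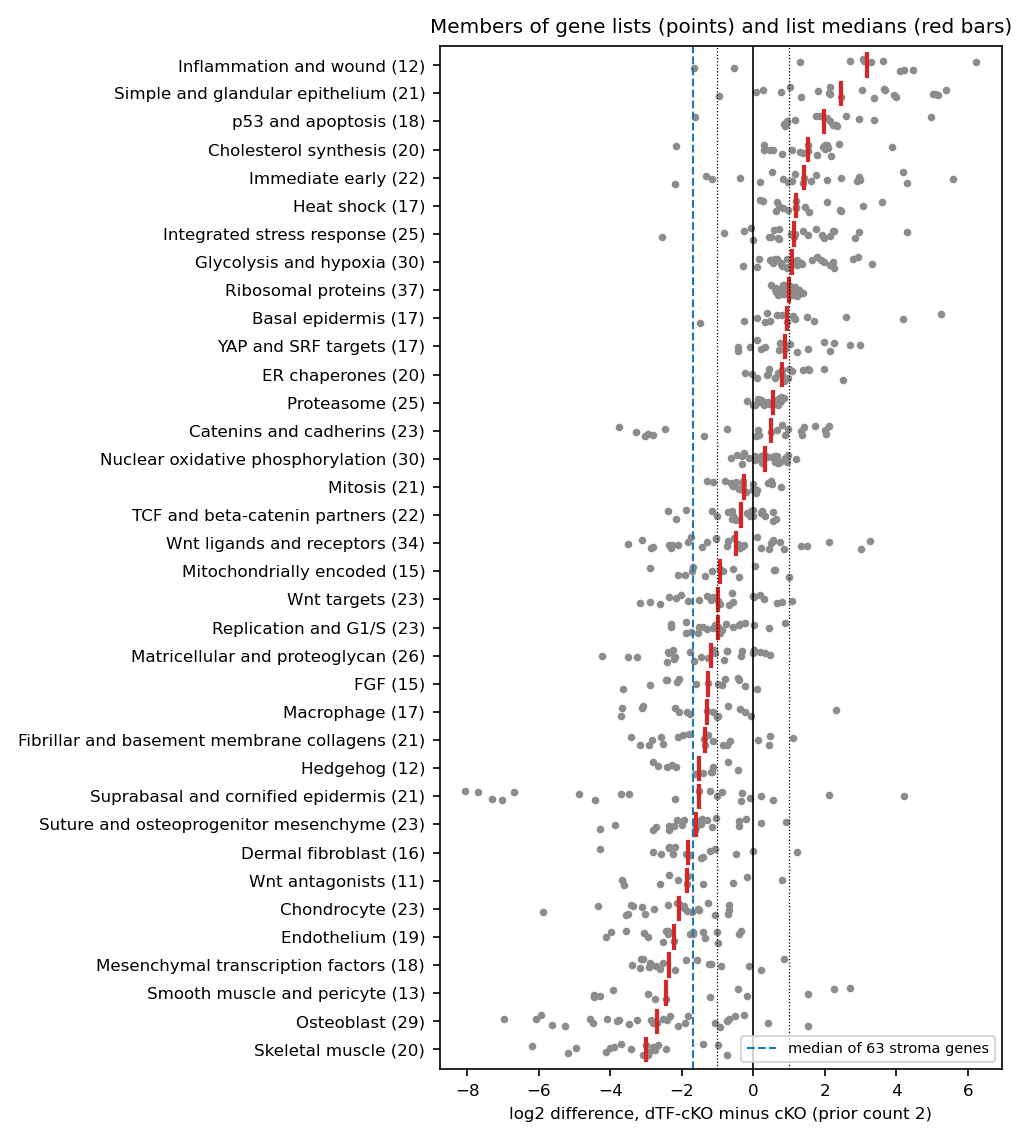
Log2 difference, dTF-cKO minus cKO (prior count of 2), of each measured member (grey points) of 36 gene lists, with list medians as red bars and the number of genes in brackets. The solid line marks equality, the dotted lines 2-fold, and the dashed blue line the median of the 63 stroma genes; inflammation, simple epithelium and p53 lists lie farthest right, and osteoblast and skeletal muscle lists farthest left.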

How the data were processed

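The authors deposited 1 table of raw read counts per gene for each library, whole numbers under a column named Count per the file headers. PolyA RNA was made into libraries with an Ion Torrent total RNA kit, per the labels' protocols. The submitters' processing notes name the build mm10. The sources used here name no strand setting, annotation, counting tool or aligner, so antisense, overlapping and near-identical genes are uncertain. Symbols turned into dates (27 of 43280, at most 0.180% of counts) were left unnamed.

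Counts of the cKO and dTF-cKO were scaled with TMM factors (1.05 and 0.955) from edgeR 4.0.16 under R 4.3.3. Log2 differences used a prior count of 2. Ratios of scaled counts carry exact conditional (Clopper-Pearson) 95% intervals. Reads carry no molecular identifiers and PCR copies are not independent, so the intervals cover counting error only. A library at 0 counts was set to 3 counts for a bound, and no fold was given where both were at 3 or fewer; 3 counts are 0.825 CPM (control), 1.12 CPM (cKO) and 1.03 CPM (dTF-cKO). A gene counted as higher or lower at 2-fold on the log2 scale.

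The comparison, the 64 gene lists and the rule for named genes were chosen with earlier results of these data known. Named were Ctnnb1, Jup and Twist2, the 15 highest and 15 lowest genes by interval end, and the 10 most abundant of both libraries. From each list the rule took the first 2 measured and up to 4 per direction past 2-fold with an interval excluding 1. Some genes it took are not reported here. Genes outside it are marked in the text, and genes drawn in plots were picked for their roles. Alternatives were other scalings (DESeq2 1.42.0 among them), prior counts, floors and size rules. Coordinates come from GENCODE vM21 (GRCm38), which matched 11635 of the 12126 symbols.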

Additional observations from a re-analysis of the deposited data

How the results depend on the processing

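The number of genes at least 2-fold higher and lower depended most on the scaling. Without the 20 most abundant genes in the totals 1131 were higher, and under the stroma scaling 8731 were higher and 556 lower. A floor of 20 CPM gave 1191 higher and 1176 lower, so lower genes lost their excess. A 1.5-fold rule gave 3223 higher, and a 3-fold rule 703 higher and 1500 lower. The other alternatives left both counts within 1.5 times 1742 and 2488.

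Under the stroma scaling 8 list medians below -1 turned positive: suture mesenchyme 0.070, collagens 0.34, matricellular genes 0.49, hedgehog 0.17, FGF 0.42, suprabasal epidermis 0.15, melanocyte 0.34 and macrophage 0.40. Of the named genes at least 2-fold lower, Axin2 (0.40), Cdkn1c (0.36), Col3a1 (0.29), Fgfr1 (0.070), Fosb (0.51), Il33 (0.032), Klf4 (0.37), Ptch1 (0.29) and Twist2 (0.55) turned as well. No other alternative turned a list median or named gene of at least 2-fold size. No paired analysis was possible because each genotype has 1 library. Depth limits single genes: at 0 counts a gene may still hold 3 counts, about 1 CPM, and ratios with 1 to 3 counts have intervals spanning over an order of magnitude.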

Other observations

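Several groups outside the comparisons above also differed between the dTF-cKO and cKO libraries; families were formed by symbol prefix after the data were seen. Of 17 Sprr genes, small proline-rich proteins of barrier epithelia, 6 passed the floor, and all 6 were higher by 2-fold or more. Sprr2d (0, 0 and 65 counts) passed through the dTF-cKO alone, so its direction was fixed by the floor. All 17 together summed to 10, 284 and 3716 counts in the control, cKO and dTF-cKO. Their sequences are close, so the single genes are uncertain. Of 10 measured claudins 7 were higher and 2 lower, and of 10 S100 calcium-binding genes 5 were higher and 2 lower. Protocadherins lay on the other side: 0 of 13 were higher and 9 lower, with a median log2 difference of -1.49 that the stroma scaling turns to positive. Of 21 matrix proteases and inhibitors 2 were higher and 10 lower (median -0.97, 0.71 under the stroma scaling). The higher ones belong together: Plau, the urokinase protease, had 63, 78 and 254 counts and was 3.29-fold higher (2.54 to 4.296), and its receptor Plaur had 61, 26 and 157 and was 6.099-fold higher (4.01 to 9.63). Adam12 had 524, 234 and 21 and was 11.03-fold lower (7.05 to 18.2). Of 12 replication-dependent histones, whose transcripts normally carry no polyA tail, 4 passed the floor in these polyA libraries and 3 of those were higher (median 2.38). Without a floor the median was 0.25, so the value depended on which genes passed. Hist1h2bc had 46, 19 and 177 counts and was 9.41-fold higher (5.85 to 16).

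Small lists of further cell types gave these values. Of 6 osteoclast genes 3 were lower and 1, Atp6v0d2, higher with 92, 2 and 17 counts, 8.59-fold higher (2.04 to 76.6); Nfatc1, the factor of their differentiation, had 400, 120 and 12 and was 9.901-fold lower (5.46 to 19.7). Of 6 adipocyte genes 4 were lower, Zfp423 with 277, 127 and 17 counts and 7.396-fold lower (4.44 to 13.1) among them. Of 8 tendon genes 4 were lower, and Tnmd had 179, 130 and 126 counts and a ratio of 0.979 (0.7601 to 1.26). Of 6 hair placode genes 3 were lower and 1 higher, with Lhx2 at 66, 5 and 0 and Hoxc13 at 1, 13 and 34 counts. Hoxc13 passed the floor through the dTF-cKO alone. Expression level moved with the difference: the median was -0.57 in the lowest of 10 bins of genes by mean CPM and 0.45 in the highest, and its part in the results was not tested.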
